A study of Mus musculus with 4 samples.

Results

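Complex I, NADH:ubiquinone oxidoreductase, is the entry point of electrons from NADH into the mitochondrial respiratory chain and pumps protons across the inner membrane. It is L-shaped, with a matrix arm that binds NADH and passes electrons over flavin and iron-sulfur clusters, and a membrane arm that holds the proton channels. Its subunits come from both genomes: the mt-Nd genes of mitochondrial DNA encode the hydrophobic centre of the membrane arm, and nuclear genes named Nduf encode the other subunits and several assembly factors. The Nduf messenger RNAs receive their poly(A) tail in the nucleus and are translated in the cytosol, whereas poly(A) tails of mt-Nd messenger RNAs are added inside mitochondria.

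All gene symbols beginning with Nduf were taken, which gave 48 of the 13831 symbols in the table, and 21767 reads, 1.14% of all reads. They were followed in J1 mouse embryonic stem cells, cultured in medium with fetal calf serum and LIF, that were wild type (WT) or knocked out for the RNA helicase Mov10 (KO). No cells were treated, and whether the knockout line is a single clone is not given in the sources used here. There were 2 libraries per genotype, and they are named WT 1 and WT 2, KO 1 and KO 2 here. In direct RNA nanopore sequencing the native strand passes through a pore, so each read gives the tail length of 1 RNA molecule, in nucleotides (nt). The labels do not say that the libraries came from separate cultures, so the tests measure the spread between libraries, which may be technical.

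The symbol rule does not select complex I alone. Of the 48 symbols, 7 are core subunits, 9 accessory subunits of the matrix arm, 19 accessory subunits of the membrane arm, 8 assembly factors, and 1 is Ndufab1, the acyl carrier protein. Ndufa4 and its paralog Ndufa4l2 carry the name but belong to complex IV, cytochrome c oxidase. Ndufb1-ps and Ndufb4c stood outside these groups, the first because its symbol is marked as a pseudogene. That placing rests on the symbol alone, and whether Ndufb1-ps, with 291 reads, encodes a complex I subunit was not examined. All members but Ndufb4c had reads in all 4 libraries. Ndufb4c had 2 reads in all, both on a transcript that gave 599 reads to its paralog Ndufb4, so the reads of Ndufb4c cannot be attributed with certainty. Transcript identifiers that the table also pairs with another symbol held all 280 reads of Ndufa1, 33 of the 682 reads of Ndufv2 and 1 of the 812 reads of Ndufa13.

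Library facts were as follows. Reads with a tail above 0 nt numbered from 351133 in WT 2 to 683239 in KO 1. Mov10 had 26 reads in WT 1 and 14 in WT 2, against 0 in KO 1 and 1 in KO 2 (limma voom, adjusted p = 0.0335, and from 2.06e-06 to 0.993 under the alternatives). All 10 embryonic stem cell markers had reads in every library. Of 7 fibroblast markers, which feeder cells would express, 6 had no read in any library and Thy1 had from 2 to 8. The summed level of the stem cell markers was 10560 and 9336 reads per 1000000 (RPM, after scaling) in WT 1 and WT 2 and 8065 and 6988 RPM in KO 1 and KO 2, and of the 4 neural markers, mostly Tubb3, 32.8 and 74.5 RPM against 122 and 84.7 RPM. The most abundant stem cell marker, Dppa5a, had 5492 and 5449 RPM in WT and 4828 and 3891 RPM in KO. Lin28a went the other way, with 27.8 and 35.9 RPM in WT and 79.6 and 93.6 RPM in KO. Their part in the results was not tested.

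The control regions of the genes were examined first, as a feature that the symbol rule did not use. RefSeq windows of build GRCm38.p6, from 250 bases before to 50 after the annotated start, were matched by symbol for 40 of the 48 members. The box AAGATGGCG, a form of the sequence bound by the factor YY1, was found on either strand in 6 of these 40 (15.0%), against 1.64% of all 27025 symbols with a window. The ETS box CCGGAAGT was found in 1 (2.5%, against 4.31% of all), and CCAAT in 14 (35.0%, against 41.1%). These 3 boxes were kept after a larger number of strings had been looked at, and a match is only a match of letters. The 27025 symbols with a window outnumber the 13831 symbols with reads here, so they include genes without reads. The share among genes with reads is not given. Boxes were searched on both strands. The stretches with the YY1-type box are shown because its share in the members departed most from its share in all windows. Each is 30 bases from the gene's strand, 5′ to 3′, with the box in capitals:
Ndufc1, chr3:51408914-51408943, minus strand: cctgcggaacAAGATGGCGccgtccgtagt
Ndufa9, chr6:126849096-126849125, minus strand: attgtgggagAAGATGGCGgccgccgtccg
Ndufs7, chr10:80249463-80249492, plus strand: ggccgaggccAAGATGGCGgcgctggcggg
Ndufaf8, chr11:120098934-120098963, plus strand: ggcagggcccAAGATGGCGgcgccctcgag
Ndufs6, chr13:73328433-73328462, minus strand: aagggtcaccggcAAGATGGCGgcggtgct
Ndufs4, chr13:114388045-114388074, minus strand: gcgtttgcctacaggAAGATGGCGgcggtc
The 6 YY1-type boxes lay on the gene's own strand and began from 11 to 36 bases after the annotated start, in transcribed sequence. They hold an ATG triplet, and whether it is the start codon was not examined. Mean levels of the 6 genes with the YY1-type box ran from 105 to 435 RPM, inside the span of 23.3 to 664 RPM of the other 34.

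Tail lengths were then described read by read. Over all Nduf reads the median tail was 97.2 nt in WT 1 (exact 95% binomial interval of the median over reads, 95.3 to 98.9 nt), 111.6 nt in WT 2 (interval 109.6 to 113.7 nt), 107.7 nt in KO 1 (interval 106.4 to 109.0 nt) and 104.7 nt in KO 2 (interval 102.5 to 106.4 nt). WT 1 and WT 2 were the lowest and the highest library, so the KO libraries lay between them. Over the reads of all genes the medians were 97.3, 105.6, 105.8 and 98.1 nt in the same order. The Nduf median over reads was above that of all reads in WT 2, KO 1 and KO 2, with intervals that did not overlap, and level with it in WT 1. Those intervals cover the sampling of reads only, and often-read members weigh most. When every tested gene counted once, the median member minus the median of all genes was -6.52, 0.91, -1.26 and 2.4 nt in the same order. Longer Nduf tails in KO 1 were thus seen over reads but not over genes. The upper end was lower in the Nduf reads: their 90th percentile was 169.4, 179.7, 180.6 and 176.7 nt in WT 1, WT 2, KO 1 and KO 2, against 177.2, 189.2, 189.2 and 179.0 nt over all reads.

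The mt-Nd messenger RNAs, which encode the other subunits of the same complex, had far shorter tails. Their read medians were 44.1 nt in WT 1, 47.8 nt in WT 2, 47.8 nt in KO 1 and 48.9 nt in KO 2. The 90th percentile of mt-Nd reads, at most 67.4 nt, lay below the median of Nduf reads in each library. Tails of 150 nt or more made up from 0.19% to 0.516% of mt-Nd reads and from 16.8% to 22.8% of Nduf reads. All 6 mt-Nd genes with enough reads were called shorter than the median gene in the test described below, the lowest being mt-Nd6 at a log2 value of -1.43.

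**Figure D1:**
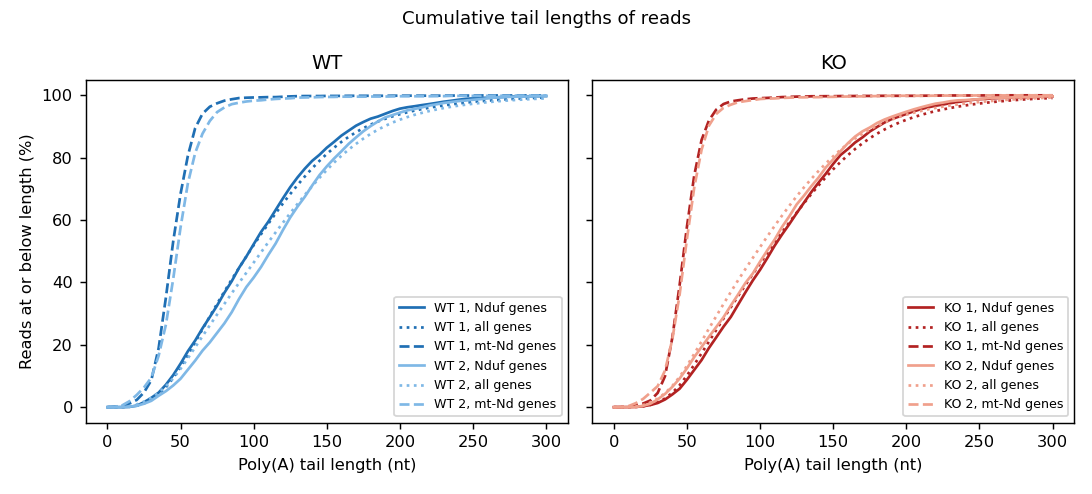
Percentage of reads (vertical axis) with a tail at or below a length in nt (horizontal axis), for Nduf genes (solid), all genes (dotted) and mt-Nd genes (dashed), WT libraries on the left and KO libraries on the right. The mt-Nd curves rise near 45 nt, while the Nduf curves lie close to those of all genes with medians from 97.2 to 111.6 nt.

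Short tails, under 30 nt, were 2.95% of the Nduf molecules of WT 1, with a 95% Wilson interval from 2.53 to 3.43%, and 2.05% of those of WT 2 (Wilson 1.65 to 2.54%). KO 1 had 1.35% (Wilson 1.12 to 1.63%) and KO 2 had 2.51% (Wilson 2.09 to 3.01%). WT averaged 2.50% ± 0.638 (SD, n = 2), and KO averaged 1.93% ± 0.821 (SD, n = 2). KO minus WT, -0.568 percentage points, was smaller in size than the replicate SD of 0.735, and without KO 1 it was 0.0126. Over the reads of all genes the same difference was -0.533 points, beside a replicate SD of 0.688. Long tails, of 150 nt or more, were 16.8% (Wilson 15.8 to 17.8%) of the molecules of WT 1 and 22.8% (Wilson 21.6 to 24.2%) of those of WT 2. KO 1 had 22.0% (Wilson 21.1 to 22.9%) and KO 2 had 20.6% (Wilson 19.5 to 21.8%). WT averaged 19.8% ± 4.26 (SD, n = 2), and KO averaged 21.3% ± 0.977 (SD, n = 2). KO minus WT was 1.49 points beside a replicate SD of 3.09, and over the reads of all genes 0.269 points beside 3.32. Without WT 1 the difference in long tails was -1.52, and without WT 2 it was 4.50. Neither share separated the genotypes beyond the spread between libraries.

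Tail length per gene was measured as the median over a gene's reads in a library, where no library had fewer than 20 reads of the gene. This held for 40 of the 48 Nduf members and for 1935 symbols in all. The 8 members below that limit were Ndufaf1, Ndufaf3, Ndufaf4, Ndufaf5, Ndufaf6, Ndufaf7, Ndufa4l2 and Ndufb4c. Over the 40 members the mean of the 4 library medians ran from 83.6 nt (Ndufv1) to 128.0 nt (Ndufa4). The median member had 95.6 nt in WT 1, 110.3 nt in WT 2, 108.7 nt in KO 1 and 104.4 nt in KO 2, and the median of all tested genes had 102.1, 109.3, 110.0 and 102.0 nt.

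To ask which members differed from the typical gene, each log2 median was set against that of the median gene in the same library, and the mean over both genotypes was tested with limma across all 1935 genes. Of the 40 members, 3 were longer at a Benjamini-Hochberg adjusted p of 0.05 (7.5%, where 16.7% of all tested genes were longer) and 7 were shorter (17.5%, where 18.4% of all were shorter). The longer ones were Ndufa4, Ndufs1 and Ndufa7. The shorter ones were Ndufv1, Ndufa13, Ndufa5, Ndufb10, Ndufb7, Ndufa9 and Ndufv2. These shares were not above the background, and the median over the 40 members was -0.04 on the log2 scale, beside -0.01 over all genes. In this setting the members thus ranged on both sides of the typical gene and did not form a block of long or short tails. The share of shorter members varied with the setting. It was 25.0%, beside 19.1% of all genes, with the mean of log2 lengths. With at least 10 reads it was 23.3%, beside 14.8%, and with at least 50 reads 17.6%, beside 22.2%.

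**Figure D2:**
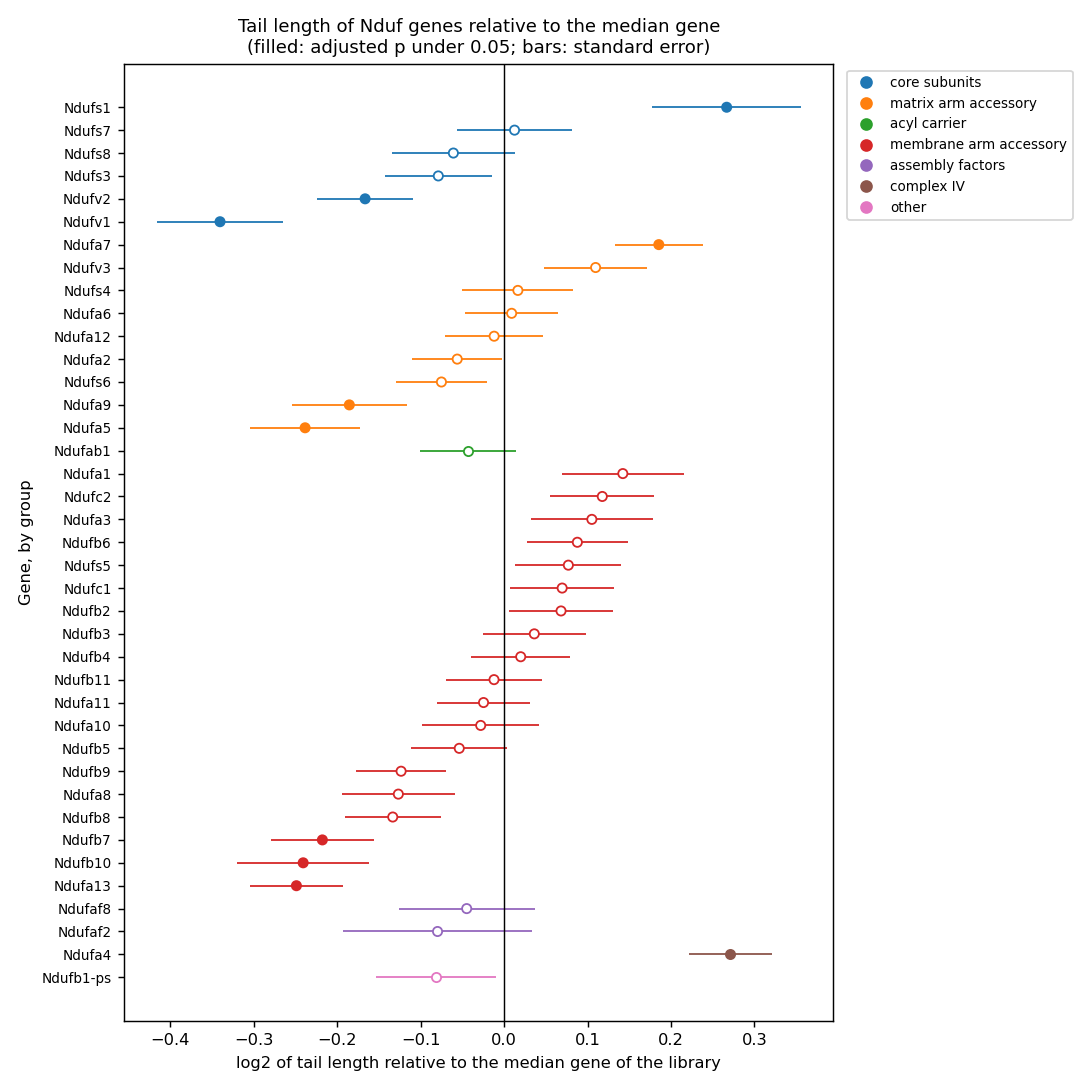
Mean log2 tail length relative to the median gene of each library (horizontal axis) with its standard error, for 39 Nduf genes sorted within their groups (vertical axis); filled points passed an adjusted p of 0.05. The 3 filled points on the right are Ndufs1, Ndufa7 and Ndufa4, and the 7 on the left include Ndufv1 at -0.34.

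Among the core subunits the tails spanned nearly the whole range of the family. Ndufv1, the subunit that binds NADH and the flavin, had medians of 81.8 nt in WT 1, 86.3 nt in WT 2, 79.0 nt in KO 1 and 87.4 nt in KO 2. It was below the median gene in all 4 libraries, at a log2 value of -0.34 (standard error 0.08, limma adjusted p = 7.74e-05), or 0.79 times the typical length. Its neighbour in the NADH-binding module, Ndufv2, which carries an iron-sulfur cluster, had 78.5, 104.0, 95.7 and 101.0 nt in the same order, with the lowest value in WT 1. It was also below the median gene in all 4 libraries (log2 -0.17, standard error 0.06, adjusted p = 0.0148), and this call was lost without WT 1, without KO 1 and without KO 2. Ndufs1, the largest core subunit of the matrix arm and a carrier of several iron-sulfur clusters, had the opposite pattern. Its medians were 120.6 nt in WT 1, 112.5 nt in WT 2, 142.6 nt in KO 1 and 135.6 nt in KO 2, above the median gene in every library. Its log2 value was 0.27 (standard error 0.09, adjusted p = 0.0112), on 28 to 60 reads per library, and the call was lost without WT 1, KO 1 or KO 2. Tails of 150 nt or more made up 39.8% of all Ndufs1 reads and 13.8% of Ndufv1 reads.

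Ndufs3, Ndufs7 and Ndufs8, core subunits of the module that hands electrons to ubiquinone, did not pass the test. Ndufs3 had 86.3, 114.3, 101.9 and 100.2 nt in WT 1, WT 2, KO 1 and KO 2 (log2 -0.08), and Ndufs8 had 88.5, 115.5, 99.2 and 104.4 nt (log2 -0.06). Ndufs7 had 102.5, 118.2, 110.3 and 97.0 nt (log2 0.01). In Ndufs3, Ndufs7 and Ndufs8 the highest value was that of WT 2, and in Ndufs3 and Ndufs8 the lowest was that of WT 1.

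In the matrix arm, 1 of 9 accessory genes was longer (11.1%, beside 16.7% of all tested genes) and 2 were shorter (22.2%, beside 18.4%). Ndufa7, which had the most reads of this group, had medians of 110.0 nt in WT 1, 133.5 nt in WT 2, 121.1 nt in KO 1 and 117.9 nt in KO 2, with a log2 value of 0.19 (standard error 0.05, adjusted p = 0.00235), a call lost without WT 2, KO 1 or KO 2. Ndufa5 had 87.7, 101.8, 84.8 and 85.5 nt in the same order and lay below the median gene in all 4 libraries (log2 -0.24, standard error 0.07, adjusted p = 0.00189), and the call was lost without KO 1. Few of its reads had long tails: 7.98% reached 150 nt, the lowest share of the 40 members. Ndufa9 had 79.8, 117.1, 88.3 and 90.8 nt, so WT 2 stood above the median gene and the other 3 libraries below it (log2 -0.19, adjusted p = 0.0233). Its call was lost without WT 1, without KO 1, without KO 2 and with a term for the replicate number (adjusted p up to 0.428). The remaining 6 genes, Ndufv3, Ndufs4, Ndufs6, Ndufa2, Ndufa6 and Ndufa12, had log2 values from -0.07 to 0.11. The acyl carrier protein Ndufab1, which also serves mitochondrial fatty acid synthesis, had 91.3, 102.7, 112.5 and 105.3 nt, near the typical gene (log2 -0.04).

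Of the 19 accessory genes of the membrane arm, 3 were shorter (15.8%, beside 18.4% of all tested genes) and 0 longer (beside 16.7%) by the adjusted test. Ndufa13, also known as Grim19, had medians of 90.7 nt in WT 1, 80.4 nt in WT 2, 92.7 nt in KO 1 and 93.0 nt in KO 2, and it was 1 of 3 members whose lowest value lay in WT 2. Its log2 value was -0.25 (standard error 0.06, adjusted p = 6.97e-05), and without KO 1 the adjusted p was 0.05. Ndufb10 had 91.1, 100.5, 88.1 and 79.7 nt (log2 -0.24, adjusted p = 0.00981), and Ndufb7 had 80.7, 93.5, 96.7 and 93.8 nt (log2 -0.22, adjusted p = 0.00242), both below the median gene in all 4 libraries. The call of Ndufb7 was lost without KO 1, and that of Ndufb10 without WT 2, KO 1 or KO 2. At the long end, Ndufa1, a small subunit that spans the inner membrane, had 107.7, 124.9, 113.9 and 121.3 nt. It lay above the median gene in all 4 libraries, at a log2 value of 0.14 that did not pass (adjusted p = 0.115). Ndufb9, the most read gene of this group, had 83.8, 94.7, 105.0 and 106.9 nt, with a log2 value of -0.12 and an adjusted p of 0.0576. Ndufb9 passed with the mean of log2 lengths (adjusted p = 0.0408) and with at least 10 reads (adjusted p = 0.024), and Ndufa1 passed with the mean of log2 lengths (adjusted p = 0.0453). Ndufb11 and Ndufb4 were near the typical gene, at log2 values of -0.01 and 0.02. The other 12 genes of the membrane arm had log2 values from -0.13 (Ndufb8) to 0.12 (Ndufc2). Ndufb8 did not pass (adjusted p = 0.0576), but it passed with the mean of log2 lengths (0.0314), with at least 10 reads (0.0272) and without WT 2 (0.0328).

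The 2 assembly factors with enough reads, Ndufaf2 and Ndufaf8, were near the typical gene at log2 values of -0.08 and -0.04, and Ndufb1-ps was at -0.08. Ndufa4, the complex IV subunit, had the most reads of all members, and its mean tail was level with that of Ndufs1, which was longer in 3 of the 4 libraries. Its medians were 111.6 nt in WT 1, 135.3 nt in WT 2, 132.9 nt in KO 1 and 132.4 nt in KO 2, with WT 1 well below the other 3. The log2 value was 0.27 (standard error 0.05, adjusted p = 7.47e-07), or 1.21 times the typical length. Only 0.236% of its reads, 3 of 1269, had tails under 30 nt. Ndufa4 and Ndufv1 passed the test under each alternative run, including those that left out a library.

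The fit behind these 10 calls took the error of a gene from the trend over read number and not from that gene's own spread; with no trend, a setting chosen after seeing the data, 7 of the 10 were called and Ndufa7, Ndufa9 and Ndufv2 were not. Without KO 1 only Ndufa4 and Ndufv1 kept their call, and without KO 2 also Ndufa13, Ndufa5 and Ndufb7. Without WT 1 all but Ndufa9, Ndufs1 and Ndufv2 kept theirs, and without WT 2 all but Ndufa7 and Ndufb10. The direction of all 10 was the same in each case. With KO 1, KO 2 or WT 2 left out, smaller shares of all tested genes were called too, in both directions. A lost call is therefore not particular to these genes.

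**Figure D3:**
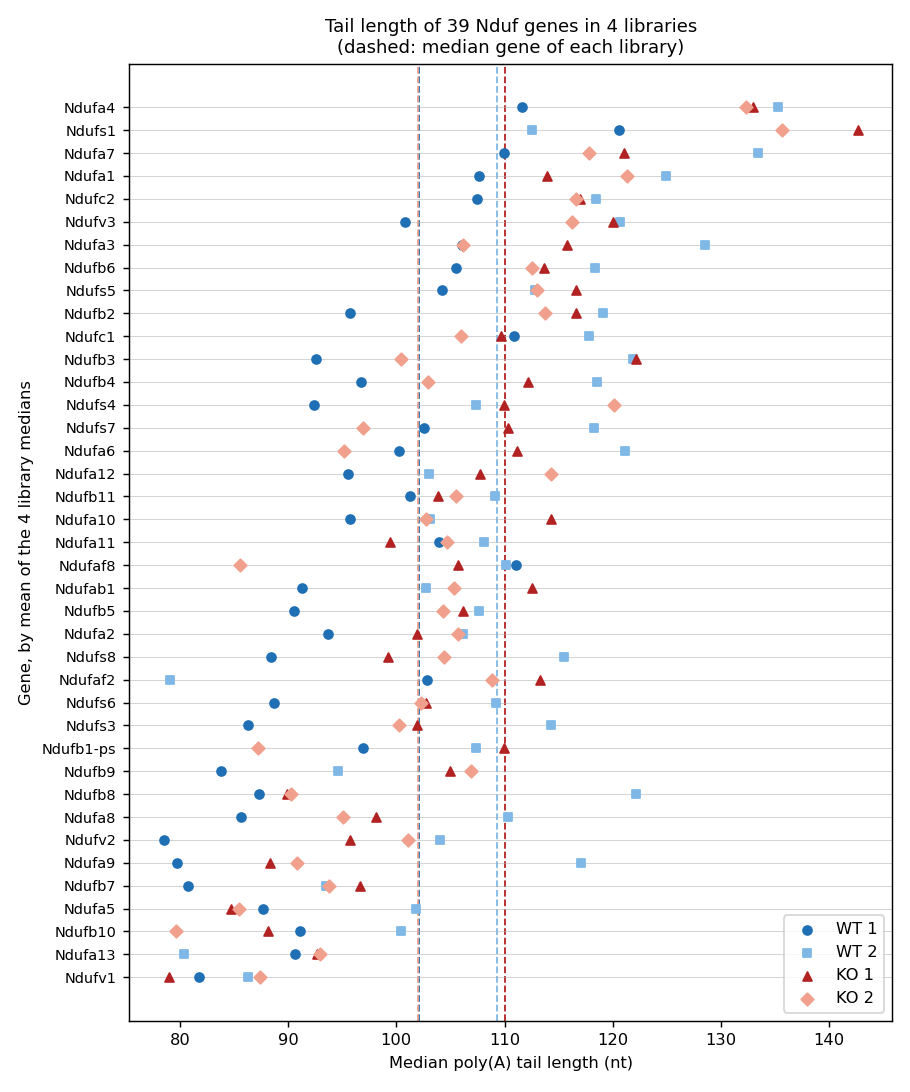
Median tail length in nt (horizontal axis) of 39 Nduf genes (vertical axis, sorted by mean) in the 4 libraries; dashed lines mark the median gene of each library. WT 1 is the lowest point in 27 of the 39 genes and WT 2 the highest in 25.

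The libraries differed more than the genotypes. WT 1 gave the lowest median in 27 of the 40 members (38.1% of all tested genes), and WT 2 gave the highest in 26 (36.4% of all). Against WT 1, 34 of 40 members were longer in KO 1 (73.0% of all genes) and 32 in KO 2 (49.5% of all). Against WT 2, 12 were longer in KO 1 (52.1% of all) and 10 in KO 2 (30.4% of all). The order of the members was partly shared between libraries. Across the 40 members, Spearman's rho of tail length ran from 0.369 (WT 2 and KO 2) to 0.747 (WT 1 and KO 1), beside 0.477 to 0.642 across all 1935 genes. These values describe genes that share libraries and differ in read number. Spearman's rho between tail length and read number across the 40 members ran from -0.0102 in WT 1 to 0.165 in KO 2.

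The comparison of KO with WT, the purpose of the study, called no Nduf gene for tail length. With limma on log2 medians, 0 of 40 members and 0 of all 1935 genes (0.0%) passed an adjusted p of 0.05, and at an unadjusted p under 0.05 the counts were 0 members and 45 genes (2.33%). Of the members, 24 of 40 (60%) had a log2 change above 0, beside 51.8% of all, and the median change was 0.02, beside 0.01 over all genes. In 9 members (22.5%) both KO libraries were above both WT libraries, against 14.7% of all tested genes. In 4 members (10%) both were below, against 11.8%. Which WT library was kept decided the direction: 10 of 40 members were longer in KO without WT 1 (median change -0.08), and 36 of 41 without WT 2 (median change 0.14). The median over all genes also differed in sign, at -0.05 without WT 1 and 0.04 without WT 2.

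The 3 members with the smallest unadjusted p for tail length were Ndufb9, Ndufb8 and Ndufs4, none of which passed (limma adjusted p = 0.9998 for each, and from 0.236 to 1 under the alternatives). Ndufb9 had 83.8 and 94.7 nt in WT and 105.0 and 106.9 nt in KO, groups that did not overlap, with a log2 change of 0.25 (standard error 0.13). Ndufb8 had 87.3 and 122.2 nt in WT and 89.9 and 90.3 nt in KO, so WT 2 alone stood apart (log2 change -0.20). Without WT 2 its log2 change was 0.05. Ndufs4, a late-added subunit of the matrix arm whose loss causes a known mouse model of mitochondrial disease, had 92.4 and 107.4 nt in WT and 110.0 and 120.1 nt in KO, also without overlap (log2 change 0.21, standard error 0.15). In simulated data of 1935 genes this test recovered 77% of changes of 0.5 on the log2 scale and 100% of changes of 1. There all genes had the same spread between libraries, set below the typical spread of the real genes, and 200 were changed. Recovery at the real spread would be lower. With fewer changed genes the adjusted threshold is stricter, so recovery in the real data may be lower. Smaller changes, such as those of these 3 genes, were not simulated.

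The levels of the Nduf messenger RNAs were compared next. A read counts 1 molecule whatever its length, so levels are given as RPM, reads per 1000000 after median-of-ratios scaling, and not per length. In bulk libraries, fewer cells with an RNA and less of it per cell cannot be told apart. Mean levels over the 4 libraries ran from 91.9 RPM (Ndufs1) to 357 RPM (Ndufv2) among the 7 core subunits, with a median of 184 RPM. The medians were 338 RPM for matrix arm accessory genes, 275 RPM for membrane arm accessory genes and 40.2 RPM for assembly factors. Assembly factors, which act on the growing complex and are not part of the finished enzyme, ran from 23.3 RPM (Ndufaf7) to 105 RPM (Ndufaf8). Ndufaf8 was below Ndufs1, the lowest core subunit, in both WT libraries and above it in both KO libraries, and the other assembly factors had lower means than either. Ndufa4 had the highest level at 664 RPM, and its paralog Ndufa4l2 had 31.5 RPM, with 29 of its 56 reads in WT 1 and 3 in WT 2.

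Core subunits of one complex differed in level by more than the spread between libraries. Ndufs1 had 95.9 RPM in WT 1, 124 RPM in WT 2, 85.2 RPM in KO 1 and 62.4 RPM in KO 2. Ndufv2 had 414, 356, 364 and 297 RPM in the same order, so its lowest library was above the highest of Ndufs1. Ndufv1 had 157, 149, 115 and 112 RPM and Ndufs8 had 134, 149, 156 and 129 RPM, ranges that overlap. Between these and Ndufv2 lay Ndufs7 (178 to 194 RPM) and Ndufs3 (212 to 257 RPM), which did not overlap.

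No Nduf gene passed the test of read number between the genotypes. Limma's voom called 0 of 47 members and 1 of 4815 genes (0.0208%), which was Mov10, and limma without voom weights called 0 in both. At an unadjusted p under 0.05 there was 1 member, Ndufaf8, and 500 genes (10.4%). Values below 0 prevailed among the members: 36 of 47 (76.6%) had a log2 change below 0, beside 50.0% of all tested genes, and the median change was -0.22, beside 0.00 over all. In 14 members (29.8%) both KO libraries were below both WT libraries, against 20% of all genes, and in 3 (6.38%) both were above, against 20.5%. By group, the change was below 0 in 4 of 7 core subunits, 8 of 9 matrix arm and 17 of 19 membrane arm accessory genes, and 3 of 8 assembly factors. The size depended on the libraries kept. Without WT 1, 25 of 46 members were below 0 with a median of -0.02, and without WT 2 it was 39 of 47 with -0.32. The medians over all genes were then 0.01 and -0.03. Without KO 1 it was 32 of 45 members with -0.23, and without KO 2 it was 34 of 47 with -0.10. Between single libraries, 20 of 47 members had fewer reads in KO 1 than in WT 2 (median 0.085), beside 50.6% of all genes. The other pairs of a KO and a WT library had member medians from -0.422 to -0.129. With library totals as the scale, the all-gene median was 0.11, with 29 of 47 members below 0, with a median of -0.11. The summed Nduf level was 13690 RPM in WT 1, 10910 RPM in WT 2, 11150 RPM in KO 1 and 10120 RPM in KO 2, with the highest value in WT 1. Under this scaling the sum over all genes was also highest in WT 1, and as a share of all reads the Nduf genes made up 1.23% and 1.13% of the WT libraries and 1.15% and 1.06% of the KO libraries.

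**Figure D4:**
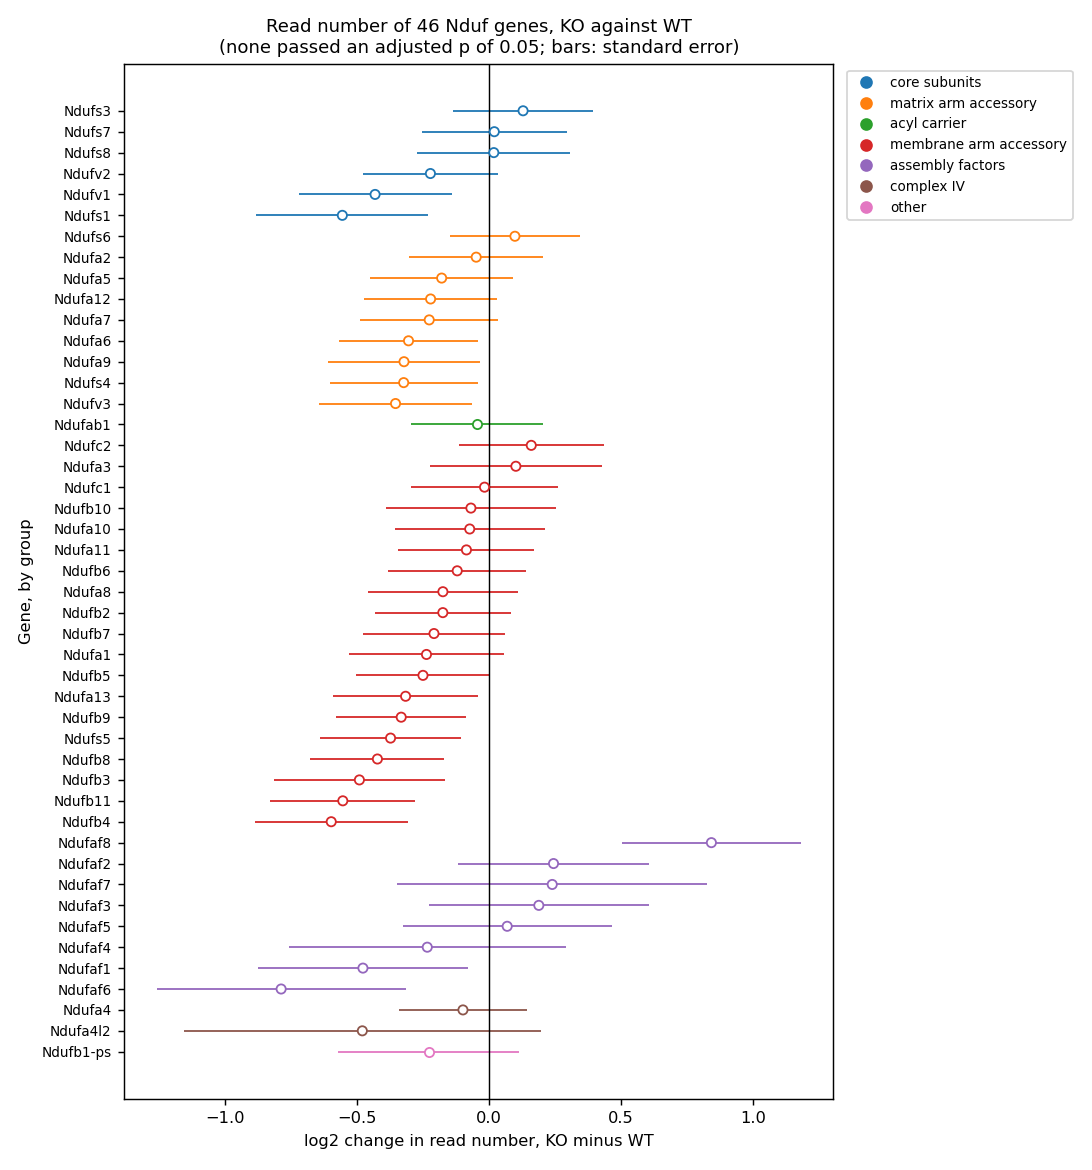
Log2 change in read number from WT to KO (horizontal axis) with its standard error for 46 Nduf genes, sorted within their groups (vertical axis); open points did not pass an adjusted p of 0.05. Of the 46 points 35 lie below 0, and Ndufaf8 lies farthest above at 0.84.

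Ndufaf8, an assembly factor that works together with Ndufaf5, had the largest positive change. Its level was 73.2 RPM in WT 1, 71.7 RPM in WT 2, 105 RPM in KO 1 and 172 RPM in KO 2, on 26 to 77 reads. Both KO libraries were above both WT libraries, with a log2 change of 0.84 (standard error 0.34, limma voom adjusted p = 0.395, and from 0.145 to 0.993 under the alternatives). Its tails were 111.1 and 110.2 nt in WT and 105.7 and 85.5 nt in KO. By RefSeq gene order Ndufaf8 lies on chromosome 11, and all 20 of its nearest tested neighbours, 10 on each side, also had a log2 change above 0, with a median of 0.92. The number of neighbours was chosen after the value of Ndufaf8 had been seen. For the other members that could be placed (46 with Ndufaf8), some of which had fewer than 20 neighbours, the number of such neighbours above 0 ran from 3 to 16 with a median of 9. Over all 4745 genes placed, 0.695% had all 20 neighbours above 0.

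At the other end, Ndufaf6 had 32.8 and 33.1 RPM in WT and 18.5 and 20.1 RPM in KO, a log2 change of -0.79 (standard error 0.47, adjusted p = 0.584), but on 9 to 13 reads per library. Ndufb4 had 510 and 281 RPM in WT and 280 and 223 RPM in KO (log2 -0.60, standard error 0.29, adjusted p = 0.492). Ndufb11 had 570 and 345 RPM in WT and 323 and 283 RPM in KO (log2 -0.55, standard error 0.27, adjusted p = 0.498). In both membrane arm genes WT 1 was far above the other libraries. Without WT 1 the change of Ndufb4 was -0.14 and that of Ndufb11 -0.16; without WT 2 they were -1.01 and -0.91 and passed the test (adjusted p = 0.00271 and 0.0069), with 5 other members. WT was then 1 library, assumed to vary like the KO pair, and 8.97% of all tested genes passed, beside 14.9% of the members.

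Other gene sets of the respiratory chain were set beside the Nduf genes as a description. For tail length, 41 nuclear genes of complexes II to V had set medians of 100.2, 115.7, 111.5 and 106.3 nt in WT 1, WT 2, KO 1 and KO 2, above the Nduf medians in each library. Like the Nduf genes, they were lowest in WT 1 and highest in WT 2. Of these 41 genes, 8 were longer (19.5%, beside 16.7% of all tested genes) and 5 shorter (12.2%, beside 18.4%) than the typical gene. The 65 mitochondrial ribosomal protein genes had 95.5, 97.7, 101.6 and 94.0 nt, with 1 longer (1.54%) and 22 shorter (33.8%). For read number, the median log2 change was -0.18 for complexes II to V and -0.11 for the ribosomal protein genes, beside -0.22 for the Nduf genes. Complex I also has assembly factors without an Nduf symbol, of which 11 had reads. Of these, 7 had enough for the test of read number, with log2 changes from -0.37 (Tmem126b) to 0.50 (Dmac1), none past the threshold. Tmem126a, the one with enough reads for tail length, had 111.4, 95.9, 106.4 and 91.9 nt (log2 -0.07 against the typical gene, adjusted p = 0.520).

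**Figure D5:**
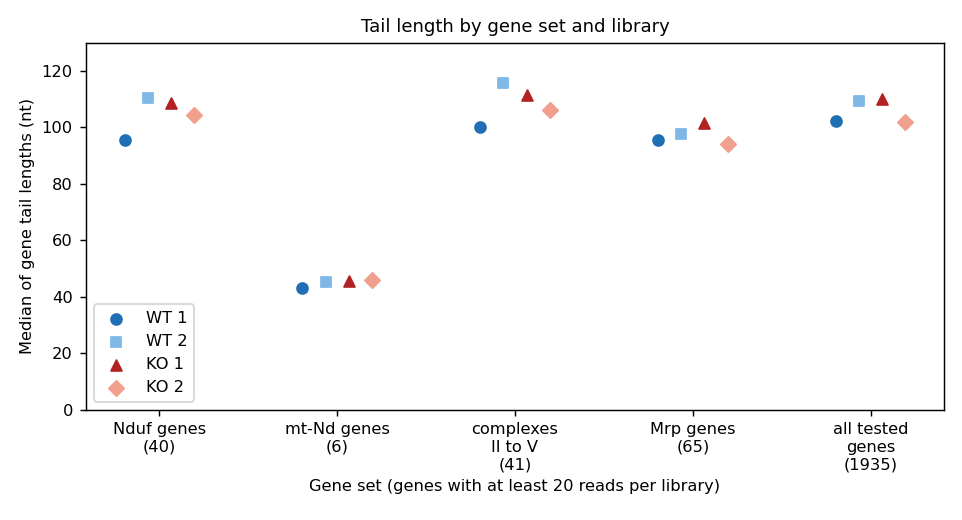
Median over genes of the tail length in nt (vertical axis) for 5 gene sets (horizontal axis, number of genes in brackets) in each of the 4 libraries. Nduf genes lie between 95.6 and 110.3 nt, near all tested genes, and mt-Nd genes near 45 nt.

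Few members could be compared between transcripts. Of the 48 members, 37 had reads on more than 1 transcript, but only Ndufb2, Ndufs3 and Ndufv3 had 2 transcripts with at least 10 reads each in every library. For Ndufv3, an accessory subunit known for a long and a short isoform, transcript ENSMUST00000064798.15 had medians of 104.1, 122.8, 121.4 and 116.7 nt in WT 1, WT 2, KO 1 and KO 2. Its transcript ENSMUST00000046288.15 had 60.7, 116.2, 89.6 and 74.4 nt on 11 to 20 reads, lower in each of the 4 libraries. In Ndufb2, transcript ENSMUST00000119379.1 had 94.6, 108.8, 122.0 and 130.5 nt in the same order, on 21 to 40 reads. Transcript ENSMUST00000135671.7 had 97.2, 120.6, 111.1 and 105.7 nt, so it was higher in both WT libraries and lower in both KO libraries. This difference was not tested. In Ndufs3 the order of the 2 transcripts was reversed in KO 2 only.

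The authors' deposited classes, whose source is not given in the sources used here, placed 0 of the 48 members among Mov10 targets with m6A, against 14.9% of all symbols. They placed 15 (31.2%) among targets without m6A, against 20.7%, and 25 (52.1%) among non-targets, against 42.5%; 8 had no class. Here m6A is a methylated adenosine within the RNA. The median log2 change in read number was -0.25 for the 15 targets without m6A, -0.17 for the 25 non-targets and -0.23 for the 7 unclassed members tested. For tail length it was 0.10, 0.00 and -0.01 over 14, 19 and 7 members, and the difference between classes was not tested.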

How the data were processed

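Direct RNA reads came from 4 libraries, 2 per genotype, of poly(A)-selected RNA (SQK-RNA002 kit, DeePlexiCon adapters, R9 flow cells, per the labels' protocols). The deposited table gives, per the file headers, a transcript, a symbol, a library and an estimated tail length in nt for each read, an estimate on no count or log scale, and yes-or-no classes by the authors. Minimap2 2.20 is named in the submitters' processing notes, without its role. The basecaller, tail estimator, build and read filters are not given in the sources used here. Since RNA was captured by its tail on oligo(dT) beads, molecules with hardly any tail may be under-represented.

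Of 1903922 reads, 3 at 0 nt were left out. Reads were collapsed to a median per symbol and library; log2 medians of symbols with at least 20 reads in each library were tested with limma 3.58.1 in R 4.3.3 (eBayes with a read number trend). Reads per symbol with a mean of at least 10 were tested with limma's voom after adding 0.5 and median-of-ratios scaling. P-values were adjusted by Benjamini-Hochberg over all symbols tested. Intervals (95%) cover read sampling only. With 2 libraries against 2, an exact permutation test cannot go below 0.333, so none is given. Each procedure was tested on simulated data holding 200 altered genes, with the same spread or dispersion for all genes, so recovery in the real data may differ. For both tail length tests the simulated spread was below the typical spread of the real genes, which overstates their recovery. The test against the typical gene recovered 100% of log2 differences of 0.5 (1935 genes), and the read number test 18% of changes of 1 and 67% of changes of 2 (4815 genes).

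Members and lists were chosen with earlier results of these data known. Values of 1 member are not reported here, and it is left out of the plots by gene but kept in the counts. Named are the other core subunits, the most read member of each group, the 4 longest and 4 shortest, those with the smallest p or largest change, and those with shared transcripts; Ndufa9, Ndufb7 and members named only in a count or range were named after their values were seen. Python 3.11.15, pandas 2.3.3, numpy 2.4.6 and scipy 1.17.1 were used.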

Additional observations from a re-analysis of the deposited data

How the results depend on the processing

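Among all genes, the count for tail length between genotypes was 1 with at least 10 reads and from 0 to 2 with a library left out; the count of members was 0 in every setting run, and their median change ranged from -0.0821 to 0.139 with a library left out. Against the typical gene, 181 genes were longer and 190 shorter with at least 50 reads, which tested fewer genes, and 231 were shorter with no trend. With the mean of log2 lengths 5 members (12.5%, beside 20.3% of all genes) were longer and 10 (25%, beside 19.1%) shorter, and with at least 10 reads 10 of 43 members (23.3%, beside 14.8%) were shorter. The counts given next, with a library left out, are over 1936 to 2184 tested genes and 40 or 41 members. Each of those fits has 1 library in a genotype. The ranges for genes and for members are not matched by the library left out, so they do not compare members with all genes. With a library left out, from 145 to 328 genes and 1 to 2 members were longer, 160 to 392 genes and 1 to 7 members were shorter, and the member median ran from -0.0476 to -0.0174. For read number, 7 genes were called with scaling by total reads, 96 with no filter, 0 with a mean of at least 50 reads, 0 with limma without voom weights, and from 0 to 456 genes and 0 to 7 members with a library left out, with member medians from -0.322 to -0.0161. The replicate block, a term for the replicate number, called 65 genes and no member for read number. The numbers pair nothing in the labels, and deviations of same-numbered libraries correlated at 0.0135 for tail length and 0.0155 for read number. With 1 library removed at a time, KO minus WT of short tails ran from -1.15 to 0.0126 and in long tails from -1.52 to 4.50 percentage points. Small values near 0 that changed sign were Ndufs7 (-0.00507 with mean log2 lengths, -0.0113 with at least 10 reads), Ndufs4 (-0.00731) and Ndufb4 (-0.00392) with at least 10 reads, and Ndufb11 (0.0108 with at least 50 reads, 0.00073 by transcript). With a library left out, Ndufaf8 ran from -0.0938 to 0.00245, Ndufb11 from -0.0467 to 0.0209, Ndufb4 from -0.0323 to 0.0612, Ndufs4 from -0.0446 to 0.0759, Ndufs7 from -0.018 to 0.0321 and Ndufs8 from -0.136 to 0.00354 against the typical gene, and the change of Ndufb8 between genotypes from -0.439 to 0.0459. The cause of these differences was not tested. Members with under 20 reads in a library, among them 6 of 8 assembly factors, could not be tested for tail length.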
